A study of Mus musculus with 6 samples.

Results

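The Klra genes encode the Ly49 receptors, a family of C-type lectin-like receptors that stand in tandem on mouse chromosome 6. Every non-control probe whose gene name begins with Klra and a digit was taken, which gave 18 genes with 24 of the 41174 probes of the array. The family was taken up with results of the contrast already known, so its differences between the groups are a description, carry no p-value and support nothing. Gene expression was measured in the back skin of C57BL/6J mice (an inbred strain), all female and aged 6 to 8 weeks. The imiquimod group received 5% imiquimod cream, a Tlr7 agonist that inflames mouse skin, and the vehicle group received the same amount of vehicle cream, 62.5 mg each day for 7 days, the imiquimod cream on shaved skin. The series title concerns SFRP4 silencing in psoriasis, and the labels name no deleted or introduced gene in either group. Each group held 3 samples of total RNA from whole skin, each on 1 single-colour Agilent array, and the labels do not say that the samples came from separate animals, so the spread between them may be partly technical.

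The treatment of each array is recorded in opposing ways. In 6 of 6 scanner files the treatment word in the file's name was the opposite of the treatment of its sample record. The columns of the authors' deposited value table, read by sample title, ranked 24253 probes almost exactly as did the scanner file named for the same treatment and number, and correlated at 0.943 to 0.953 (Spearman) with the file placed under that sample. Arrays were therefore grouped by the word in the file name. Grouped by the sample records, every difference would keep its size and take the other sign. As a check of that grouping, 9 of 9 measured genes of the known skin response to imiquimod were higher in the imiquimod arrays, with a median log2 difference of 5.40. All 9 tested epidermal and dermal genes (keratins, collagens) were well above background on every array. That would be so under either grouping and is no check of it.

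Slide 1 held imiquimod array 1 and vehicle arrays 1, 2 and 3, and slide 2 held imiquimod arrays 2 and 3. Slide and group therefore overlap in part, and the difference within slide 1, imiquimod array 1 against the 3 vehicle arrays, is given beside the members' values. The share of probes well above background was 61.2% to 67.4% per array, the 75th percentile of the signal was 917 to 994 on the imiquimod arrays and 995 to 1166 on the vehicle arrays, and no kept probe was saturated. The negative controls had a mean net signal of 31.7 to 35.5 on the imiquimod arrays and 37.6 to 45.2 on the vehicle arrays, and the extraction software gave vehicle arrays 2 and 3 the quality status evaluate. The number of arrays limits the precision. In whole skin, more cells of a type and more RNA per cell cannot be told apart.

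Most Ly49 receptors sit on natural killer cells, where they bind MHC class I molecules or viral proteins that resemble them. Inhibitory members carry a tyrosine motif in their cytoplasmic tail that recruits the phosphatase Ptpn6, so a cell that displays the right class I molecule is spared. Activating members lack that motif and signal through the adaptors Tyrobp (DAP12) and Hcst (DAP10). Some members lie outside this scheme: Klra2 (Ly49B) is known from myeloid cells and Klra17 (Ly49Q) from plasmacytoid dendritic cells and other myeloid cells, and Klra5 (Ly49E) is also known from epidermal gamma delta T cells. The number and identity of the genes differ between inbred strains, and Klra12, Klra15, Klra16, Klra21, Klra22 and Klra23 were described from strains other than C57BL/6.

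The probes themselves show how closely the copies resemble each other. Each is 60 bases long, and 18 of the 24 were placed by the array files in mm9, all on the minus strand of chromosome 6, between 129818820 and 131192837; no exon annotation of that build was used here. The files list another Klra gene as a target of 9 of the 24 probes, and of 3 of the 11 bright enough to test: Klra21 for the Klra9 probe, Klra13-ps for a Klra12 probe, and Klra7 and Klra13-ps for the Klra23 probe. At most 4 identifiers are listed per probe, so these lists need not be complete. The probes of Klra7 and Klra15 are shown because they are the most alike of the tested probes. Capitals mark the bases that match in the ungapped alignment, which has 12 mismatches over 56 bases and an unbroken shared run of 20. The Klra7 probe lies at chr6:130168797-130168950 in mm9, and the Klra15 probe was not placed.
Klra7: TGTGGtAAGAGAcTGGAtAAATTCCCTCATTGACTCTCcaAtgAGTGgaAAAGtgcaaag
Klra15: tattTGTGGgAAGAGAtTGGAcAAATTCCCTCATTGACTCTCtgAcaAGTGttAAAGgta

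The other close pair is shown because its members behaved differently on the arrays. The second Klra12 probe (chr6:130002990-130003049) and the Klra23 probe (chr6:130248748-130248807) match at all but 4 of the 40 bases where they overlap. Counted from 1 at the 5' end of the Klra12 probe, with its base first, the differences are G11T, T20C, G29A and C40T. Capitals again mark the matching bases.
Klra12 probe 2: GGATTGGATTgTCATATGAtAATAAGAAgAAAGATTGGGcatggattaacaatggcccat
Klra23: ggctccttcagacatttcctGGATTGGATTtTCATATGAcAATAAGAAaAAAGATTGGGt

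Across the 276 pairs of Klra probes, 3 shared a run of at least 16 bases. Probes for an activating member (Klra8), an inhibitory member (Klra9) and both members known from myeloid cells (Klra2, Klra17) are shown with the longest run shared with another Klra probe in capitals. They were placed at chr6:130072163-130075094, chr6:130135553-130135612, chr6:131180206-131192837 and chr6:129818820-129822239, in the order printed, and the 60 bases of the Klra8 probe are spread over 2932 bases of the genome. How much of a probe's signal came from a close copy was not tested, and the probes are not independent of each other.
Klra8: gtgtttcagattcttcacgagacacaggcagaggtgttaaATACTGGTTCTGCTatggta
Klra9: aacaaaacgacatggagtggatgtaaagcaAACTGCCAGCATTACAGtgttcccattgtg
Klra2 probe 1: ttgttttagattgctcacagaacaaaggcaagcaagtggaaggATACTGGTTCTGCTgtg
Klra17: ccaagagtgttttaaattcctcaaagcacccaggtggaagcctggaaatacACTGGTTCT

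The family was dim in skin under either cream. Over the 24 probes, 36 of 72 probe measurements were well above background on the imiquimod arrays, against 12 of 72 on the vehicle arrays. On all 6 arrays only the Klra7 and Klra23 probes were above background, and 11 probes were so on none. Testing required a signal well above background on 3 or more arrays, which left 11 probes of 10 genes. Of these, 10 were higher in imiquimod skin and 0 lower, where 11.2% of all 27415 tested probes were called higher and 10.1% lower. The 10 called probes were the 10 whose imiquimod arrays all lay above all vehicle arrays, where 23.3% of all tested probes did so. Over all 24 probes, tested or not, this held for 15, against 17.0% of the 41115 probes kept, and the reverse order was found for 0. A probe that is bright in the imiquimod arrays only could pass the filter through them alone, so nothing is read from these counts. The median difference was 2.53 over the 11 tested probes and 1.42 over all 24, against -0.0029 over all tested probes and 0.049 over all kept probes.

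These counts moved with the arrays used. With slide as a block 2 of the 11 passed, where 2.4% of all tested probes were called higher. In either direction 5.12% of all tested probes were called, against 21.2% without the block. Within slide 1, where a lone imiquimod array met 3 vehicle arrays, 1 of 11 passed, and 0.102% of all tested probes. Without imiquimod array 1, 2 or 3 the count was 4, 3 or 4, where 4.67%, 4.57% or 4.9% of all tested probes were called higher. Without vehicle arrays 2 and 3 it was 6, where 7.4% of all were called higher. The sizes moved less: differences of the tested probes ranged from 0.85 to 3.74 over all arrays and from 0.32 to 4.02 within slide 1.

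**Figure D1:**
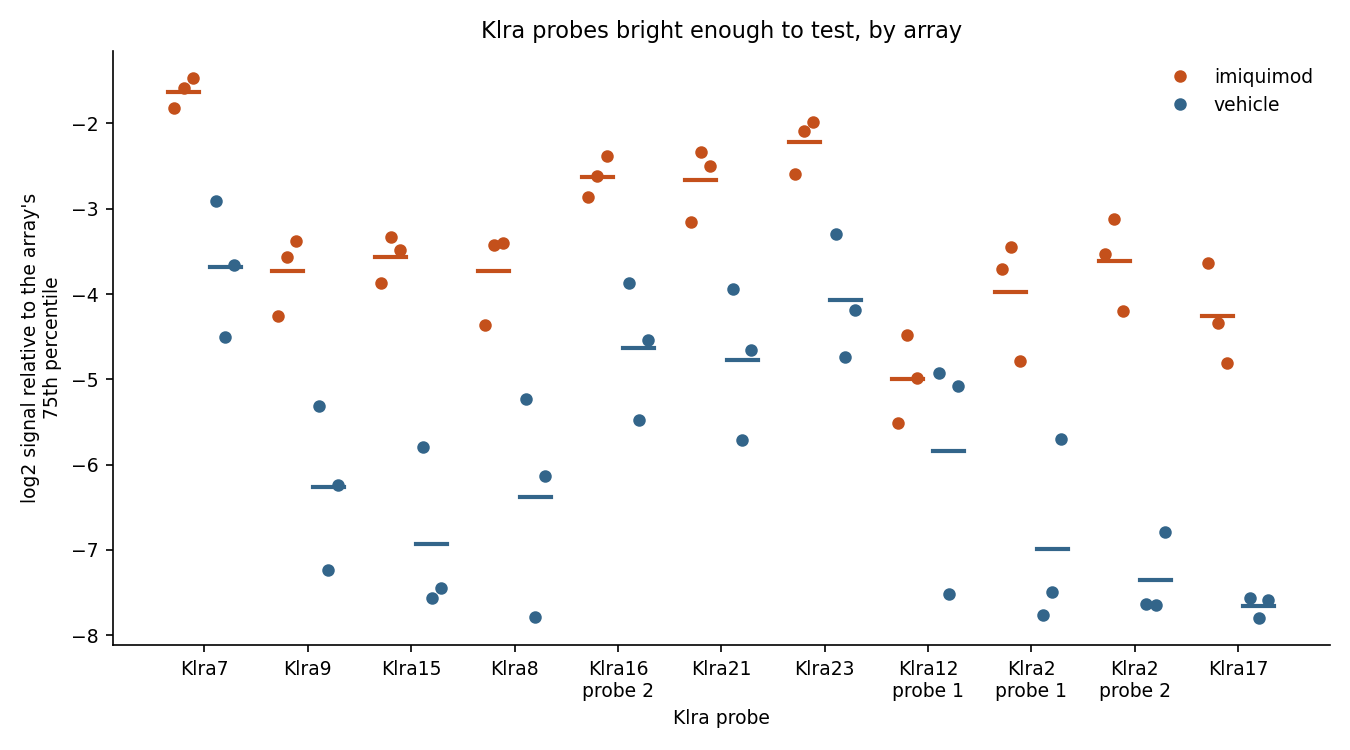
Log2 signal relative to the array's 75th percentile (vertical axis) of the 11 Klra probes bright enough to test, with the 3 imiquimod arrays (orange, left, in order 1, 2, 3) and the 3 vehicle arrays (blue, right, in order 1, 2, 3) of each probe as points and the group mean as a bar. The groups do not overlap in 10 probes and overlap for the first Klra12 probe.

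Values below are log2 signals relative to the 75th percentile of the array's signals, so that 0 is that percentile and each unit is a factor of 2, and differences are imiquimod minus vehicle with the standard error of the fit (3 arrays per group). Levels of different probes cannot be compared. Among the inhibitory receptors, Klra7 (Ly49G) lay at -1.82, -1.59 and -1.46 on imiquimod arrays 1, 2 and 3, against -2.91, -4.50 and -3.66 on vehicle arrays 1, 2 and 3. Every imiquimod array lay above every vehicle array, and the vehicle arrays were the more spread out. The difference was 2.06 (SE 0.39), or 4.18-fold, and 1.87 within slide 1.

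Klra9 (Ly49I) lay at -4.26, -3.57 and -3.37 on the imiquimod arrays, all well above background, against -5.32, -7.24 and -6.24 on the vehicle arrays, none of them above background. The groups did not overlap, and the vehicle values are at the background level, so their size has no meaning of its own. The floor of an array is here its lowest signal well above background. With vehicle values below the floor raised to it, the imiquimod mean was 3.38-fold higher. The value on vehicle array 1 already lay above its floor and was not raised. The floor is set by another probe, so folds against it are no strict lower bounds. The fitted difference of Klra9 was 2.53 (SE 0.51), with 2.01 within slide 1. The probe named for Klra15 (Ly49O), a gene described from other strains, is close in sequence to that of Klra7 and behaved likewise. It lay at -3.88, -3.33 and -3.49 on the imiquimod arrays, against -5.80, -7.56 and -7.44 on the vehicle arrays. Again 3 imiquimod and 0 vehicle arrays were above background and the groups were apart. Against the floor its mean was 4.06-fold higher in imiquimod skin, and the fitted difference was 3.37 (SE 0.49) and 3.06 within slide 1.

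Klra8 (Ly49H) is the activating receptor that recognises a mouse cytomegalovirus protein. Its probe lay at -4.36, -3.43 and -3.40 on the imiquimod arrays, against -5.23, -7.78 and -6.13 on the vehicle arrays, of which 1 was above background. All imiquimod arrays lay above all vehicle arrays, by the least for imiquimod array 1 and vehicle array 1. The difference was 2.65 (SE 0.66), with 2.02 within slide 1. The second Klra16 probe (Ly49P, activating) lay at -2.87, -2.62 and -2.38 on the imiquimod arrays, against -3.86, -5.48 and -4.54 on the vehicle arrays, a difference of 2.00 (SE 0.41) and of 1.76 within slide 1. The probe named for Klra21 (Ly49U, activating) lay at -3.16, -2.33 and -2.50 on the imiquimod arrays, against -3.94, -5.71 and -4.66 on the vehicle arrays, a difference of 2.11 (SE 0.47) and of 1.61 within slide 1. In both probes the groups were apart, and 2 of 3 vehicle arrays were above background.

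The probe named for Klra23 (Ly49W, activating), for which the files also list Klra7, lay at -2.59, -2.09 and -1.98 on the imiquimod arrays, against -3.30, -4.74 and -4.19 on the vehicle arrays. It was above background on all 6 arrays, with the groups apart, and differed by 1.85 (SE 0.38), or 3.62-fold, and by 1.48 within slide 1. Its near match, the second Klra12 probe printed above, was well above background on 0 arrays and differed by -0.31 (SE 0.52), with overlapping groups. The first Klra12 probe (Ly49L, activating) was the tested member that did not pass. It lay at -5.52, -4.48 and -4.98 on the imiquimod arrays, against -4.93, -7.51 and -5.08 on the vehicle arrays, so that the groups overlapped. Its difference of 0.85 (SE 0.72) was 0.015 without vehicle array 2, 0.32 within slide 1 and -0.060 without vehicle arrays 2 and 3.

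The receptors known from myeloid and plasmacytoid dendritic cells had 3 probes, each well above background on every imiquimod array and on 0 vehicle arrays. The first Klra2 (Ly49B) probe lay at -3.71, -3.45 and -4.79 on the imiquimod arrays, against -7.76, -7.49 and -5.70 on the vehicle arrays. The second Klra2 probe lay at -3.53, -3.12 and -4.20 on the imiquimod arrays, against -7.63, -7.65 and -6.79 on the vehicle arrays. Both probes were highest on imiquimod array 2 and above background on 0 vehicle arrays, and in both the groups were apart. With vehicle values raised to the floor, means were 3.04-fold and 3.93-fold higher in imiquimod skin. The fitted differences were 3.00 (SE 0.62) and 3.74 (SE 0.36), with 3.28 and 3.83 within slide 1. Klra17 (Ly49Q) lay at -3.63, -4.34 and -4.80 on the imiquimod arrays, against -7.57, -7.80 and -7.59 on the vehicle arrays. Imiquimod array 1 was the highest and the vehicle arrays, none above background, lay close together. Against the floor its mean was 2.52-fold higher in imiquimod skin, and the fitted difference was 3.40 (SE 0.30) and 4.02 within slide 1. Over all kept probes, 0.367% were above background on 3 imiquimod and 0 vehicle arrays, as were 5 of the 24 Klra probes: those of Klra9, Klra15 and Klra17 and both of Klra2.

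The other 13 probes were too dim to test, and 8 genes had no tested probe. Their values lay between -8.01 and -4.87 and their differences between -0.42 and 1.69, and in 5 of the 13 the imiquimod arrays all lay above the vehicle arrays. Over all 41115 kept probes, tested or not, 17.0% did so. The share among untested probes alone was not computed, and nothing is read from the 5. Klra10 (Ly49J, inhibitory) and Klra22 (Ly49V, inhibitory) were above background on 2 imiquimod and 0 vehicle arrays. Klra22 lay at -5.49, -4.87 and -4.98 on the imiquimod arrays, against -6.35, -7.57 and -6.50 on the vehicle arrays. It allows no fold, since its value on imiquimod array 1 was not well above background either. Klra10 lay at -6.56, -5.30 and -5.29 on the imiquimod arrays, against -7.72, -7.44 and -6.61 on the vehicle arrays, and likewise allows no fold. The remaining 11 probes were above background on 0 arrays. They comprise all 3 of Klra3 (Ly49C, inhibitory, differences 1.11, 0.50 and 1.31), both of Klra5 (0.18 and -0.42), those of Klra6 (Ly49F, 0.94), of Klra4 (Ly49D, activating, 0.32), of Klra19 (0.11) and of Klra20 (0.22), the first of Klra16 (0.16) and the second of Klra12. For these no level was measured under either cream.

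**Figure D2:**
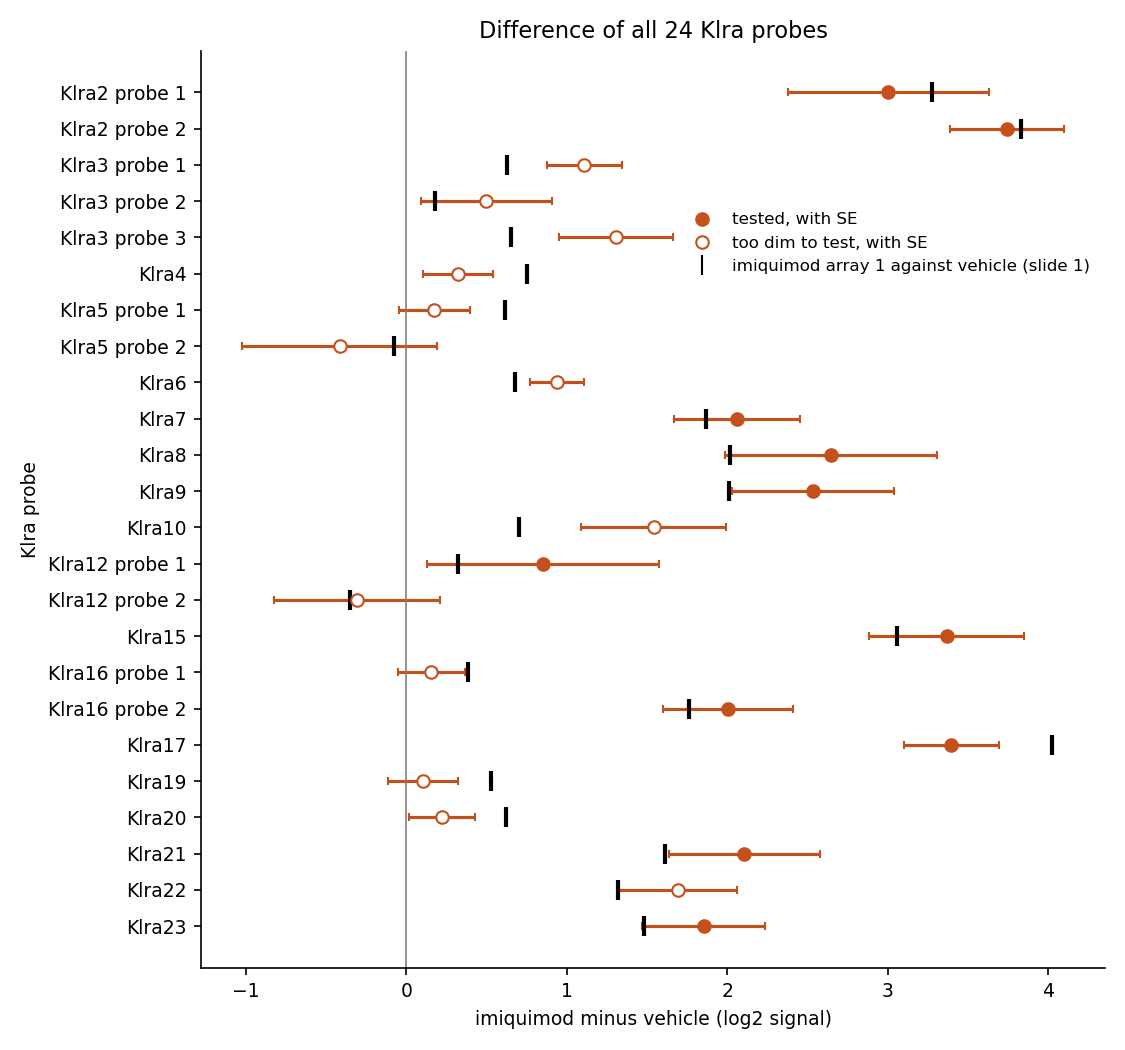
Difference in log2 signal, imiquimod minus vehicle (horizontal axis), of all 24 Klra probes with its standard error (3 arrays per group), filled for the 11 tested probes and open for the 13 too dim to test, with a black tick for imiquimod array 1 against the 3 vehicle arrays of the same slide. The tested probes lie between 0.85 and 3.74, and those of Klra2, Klra9, Klra15 and Klra17, with 0 vehicle arrays above background, cannot be ranked by size.

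The signal scale decides the size of the differences of such dim probes. With normexp background correction, which keeps an offset of 50 above background, the tested probes differed by 0.22 (Klra12 probe 1) to 1.37 (Klra7), and the same 10 passed. The authors' deposited value table gave 2.11 for Klra7, 3.24 for Klra17 and 3.69 for the second Klra2 probe, close to the values above.

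Within the groups the members fell into 2 orders. The 8 tested probes other than those of Klra2 and Klra17 were lowest on imiquimod array 1 in 8 of 8, and among the vehicle arrays highest on array 1 and lowest on array 2 in 8 of 8. The 3 probes of Klra2 and Klra17 were lowest on imiquimod array 3 in 3 of 3. Relative to each probe's mean over the imiquimod arrays, the median of the 8 was -0.43, 0.20 and 0.20 on imiquimod arrays 1, 2 and 3, and that of the 3 was 0.27, 0.50 and -0.58. Of the gene lists described below, 15 of 20 natural killer cell genes were lowest on imiquimod array 1, as were 10 of 14 MHC class I, 10 of 13 gamma delta and epidermal T cell and 6 of 8 alpha beta T cell genes, while 12 of 14 neutrophil genes were lowest on imiquimod array 3. The other lists of myeloid cells did not share the neutrophil order. Of 14 macrophage and monocyte genes, 6 were lowest on imiquimod array 1 and 5 on array 3. Of 11 plasmacytoid dendritic cell genes, 6 were lowest on imiquimod array 1 and 3 on array 3. For the 11 adaptor, kinase and phosphatase genes the counts were 6 and 4. Among the vehicle arrays the natural killer cell genes did not follow the 8 probes: 18 of 20 were lowest on array 2, but 15 were highest on array 3 and 5 on array 1. Among all 17928 genes tested, 39.5% were lowest on imiquimod array 1 and 29.5% on array 3. Among the vehicle arrays, 41.4% of all genes tested were lowest on array 2, while 3063 were highest on array 1 and 8136 on array 3. Imiquimod array 1 is also the imiquimod array of slide 1, so array and slide cannot be told apart here. Imiquimod array 1 also had the smallest share of probes well above background, 61.2% against 65.8% and 66.5% on imiquimod arrays 2 and 3. Its 75th percentile, 917, was the lowest of all arrays. The part of this in the order of such dim probes was not tested. The split of the members by known cell type was chosen after their values were seen, and no test was made of it.

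**Figure D3:**
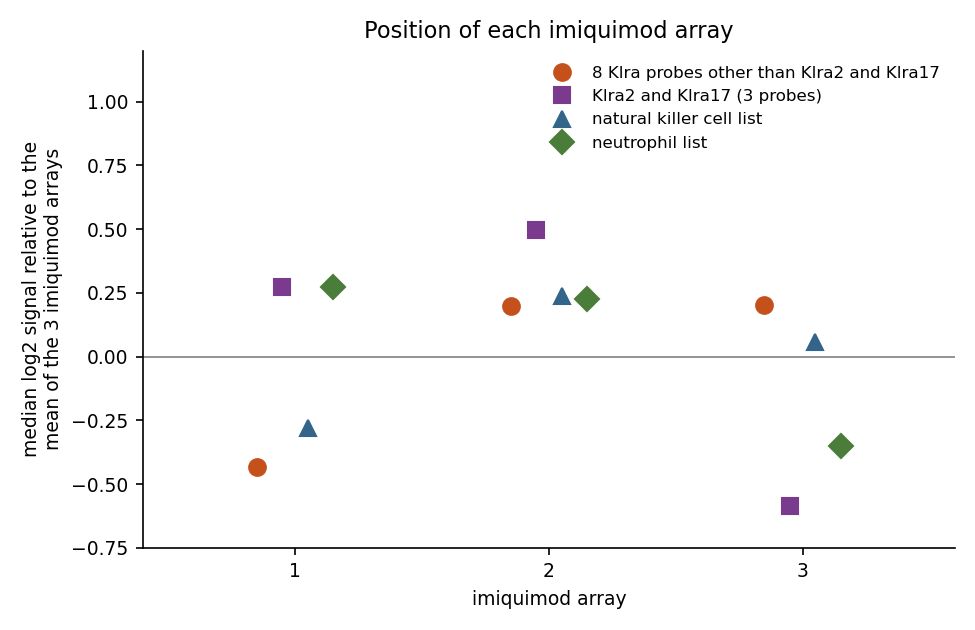
Median log2 signal relative to the mean of the 3 imiquimod arrays (vertical axis) on imiquimod arrays 1, 2 and 3 (horizontal axis), for the 8 tested Klra probes other than Klra2 and Klra17, the 3 probes of Klra2 and Klra17, the natural killer cell list and the neutrophil list. The 8 probes and the natural killer cell list lie lowest on array 1, at -0.43 and -0.28, and the 3 probes and the neutrophil list on array 3, at -0.58 and -0.35. The macrophage and plasmacytoid dendritic cell lists, which did not share the neutrophil order, are not drawn. Nor are the gamma delta, alpha beta T cell, MHC class I and adaptor lists. These too were lowest on array 1, at -0.44, -0.30, -0.19 and -0.14, so that order is not particular to natural killer cell genes.

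Other genes of natural killer cells did not rise as a group. Of 28 list genes on the array, 20 were tested, of which 3 rose, 2 fell and 15 did not pass, where 12.3% of all genes tested rose and 10.5% fell (limma, adjusted p under 0.05). The list's median difference was -0.14, against 0.012 over all genes. Gzma, a serine protease of cytotoxic granules, rose by 4.60 (SE 0.66, adjusted p = 0.0082), at -2.11, -1.29 and -1.86 on the imiquimod arrays, against -4.83, -7.38 and -6.84 on the vehicle arrays, of which 1 was above background. Gzmb, another granule protease, rose by 1.68 (SE 0.22, adjusted p = 0.0059), and Ifng, interferon gamma, by 0.69 (SE 0.18, adjusted p = 0.045), with 2 imiquimod arrays and 1 vehicle array above background. Xcl1, a chemokine, fell by 1.91 (SE 0.40, adjusted p = 0.022), and Klrb1b, an inhibitory lectin-like receptor, fell by 1.77 (SE 0.47, adjusted p = 0.045). Klrg1, another inhibitory receptor, differed by -1.25 (SE 0.35, adjusted p = 0.051) and did not pass.

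The neighbouring receptor genes of natural killer cells gave no common direction. They are named here after their values were seen. Klrd1 (CD94), which pairs with Klrc1 (NKG2A), differed by 0.003 (adjusted p = 0.997) and Klrc1 by 0.85 (adjusted p = 0.24). Klrk1 (NKG2D) differed by -0.58 (adjusted p = 0.38) and Klrb1c (NK1.1) by 0.99 (adjusted p = 0.15). Ncr1 (NKp46), which marks natural killer cells, was above background on 1 imiquimod and 0 vehicle arrays, and Eomes, Fasl, Klrc2, Klrc3, Klre1 and Klri2 on none. The summed signal of the list, in multiples of each array's 75th percentile, was 3.50 to 4.47 on the imiquimod arrays and 2.32 to 5.58 on the vehicle arrays, which overlap. With slide as a block 0 genes of the list rose and 1 fell, which was Klrg1, while Xcl1 and Klrb1b did not pass. The Gzma and Gzmb calls held without each array in turn. Those of Xcl1 and Klrb1b were lost without imiquimod array 1, 2 or 3 or vehicle array 1, that of Klrb1b also without vehicle array 3, and that of Ifng without imiquimod array 1, 2 or 3 or vehicle array 2 or 3. Without vehicle array 2 the number that fell was 6, and without vehicle array 3 it was 1.

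The partners through which the receptors signal were largely higher in imiquimod skin. Of 11 adaptor, kinase and phosphatase genes, 9 rose, 0 fell and 2 did not pass, with a median difference of 1.50. Syk, the kinase that Tyrobp engages, lay at 0.21, 0.35 and 0.05 on the imiquimod arrays, against -1.29, -1.45 and -1.13 on the vehicle arrays, and rose by 1.50 (SE 0.14, adjusted p = 0.0027). Lcp2 (SLP-76) rose by 2.25 (SE 0.28, adjusted p = 0.0056) and Vav1, which like it acts downstream of such kinases, by 2.00 (SE 0.29, adjusted p = 0.0086). Outside the naming rule, and chosen after their values were seen, Tyrobp rose by 2.27 (SE 0.34, adjusted p = 0.0090), Hcst by 1.48 (SE 0.23, adjusted p = 0.010) and Ptpn6 by 1.34 (SE 0.29, adjusted p = 0.025). Ptpn11 and Zap70 differed by -0.24 and 0.57 and did not pass. Tyrobp and Syk also serve neutrophils and macrophages, whose markers rose too (below), and their part in these values was not tested. The count was 1 with slide as a block and 5 without imiquimod array 2 or vehicle array 1. Ptpn6 did not pass without imiquimod array 1, 2 or 3 or vehicle array 1.

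On the ligand side few calls were made. Of 14 tested genes of the MHC class I list, 1 rose and 13 did not pass, with a median of 0.060. The gene that rose was Plau, a secreted protease (urokinase) that is no class I gene but stood in the list, at 1.54 (SE 0.21, adjusted p = 0.0067). Tap1, a subunit of the transporter that supplies peptides for class I molecules, differed by -0.37 (SE 0.21, adjusted p = 0.25). Psmb8, an immunoproteasome subunit, differed by 0.33 (SE 0.31, adjusted p = 0.48). A p that misses the threshold does not show equal levels. With slide as a block 0 genes passed.

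Among T cell genes, those of gamma delta and epidermal T cells had 1 member higher, 4 lower and 8 not past the threshold of 13 tested, with a median of -0.46. Cd163l1, a scavenger receptor of gamma delta T cells, rose by 2.63 (SE 0.48, adjusted p = 0.016). Fgf10, a growth factor for keratinocytes, fell by 0.77 (SE 0.12, adjusted p = 0.0095). Cd7 (-1.86) and Cd96 (-1.73), surface receptors of T and natural killer cells, fell as well and are named after their values were seen. Of 8 tested genes of alpha beta T cells, Cd5 rose by 1.54 (SE 0.15, adjusted p = 0.0031), Cd8b1 rose by 1.07 (SE 0.14, adjusted p = 0.0059) and Lck, a kinase of the T cell receptor, fell by 1.10 (SE 0.23, adjusted p = 0.022), while 5 did not pass. The list's median was -0.017. The summed signals of the gamma delta list overlapped, at 7.48 to 13.4 on the imiquimod arrays and 7.49 to 12.0 on the vehicle arrays, and those of the alpha beta list did too, at 2.87 to 4.43 on the imiquimod arrays and 2.42 to 4.10 on the vehicle arrays. With slide as a block 0 and 1 genes of these lists rose and 0 fell. Cd163l1 did not pass without imiquimod array 2 or 3 or vehicle array 1. Without vehicle array 1 or imiquimod array 1 or 3, Cd7, Cd96 and Lck did not pass, which left 2 gamma delta genes lower, and Cd96 did not pass without imiquimod array 2 either.

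Myeloid genes, the setting in which Klra2 and Klra17 are known, were higher. All 14 neutrophil genes rose, with a median of 4.48 and a summed signal of 750 to 868 on the imiquimod arrays and 5.40 to 43.4 on the vehicle arrays. Fpr1, a receptor for bacterial peptides, rose by 6.37 (SE 0.66, adjusted p = 0.0034). Lcn2 binds bacterial siderophores and rose by 4.45 (SE 0.33, adjusted p = 0.0019), and the gelatinase Mmp9 rose by 2.79 (SE 0.26, adjusted p = 0.0027). Of 14 macrophage and monocyte genes 8 rose and 6 did not pass, with a median of 1.15 and sums of 371 to 422 on the imiquimod arrays and 127 to 304 on the vehicle arrays. Cd14, a lipopolysaccharide co-receptor, rose by 2.38 (SE 0.24, adjusted p = 0.0033), and Clec4d, a lectin of myeloid cells, by 4.73 (SE 0.62, adjusted p = 0.0062). Itgam stands in both lists. With slide as a block 7 neutrophil and 2 macrophage genes rose. The neutrophil count was 9 without imiquimod array 1 or 2, and the macrophage count was 4 without imiquimod array 1, 2 or 3 and 5 without vehicle array 1.

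Plasmacytoid dendritic cell genes gave a mixed account. Of 11 tested, 4 rose, 0 fell and 7 did not pass, with a median of -0.23. Spib, a transcription factor of these cells, lay at -4.18, -4.26 and -4.75 on the imiquimod arrays, against -6.68, -6.08 and -6.58 on the vehicle arrays, none above background. With vehicle values raised to the floor defined above, its mean was 2.28-fold higher in imiquimod skin (adjusted p of the fit = 0.0041). Ccr9, a chemokine receptor, rose by 0.84 (SE 0.16, adjusted p = 0.019) and Pld4, a phospholipase D family nuclease, by 2.02 (SE 0.44, adjusted p = 0.026), while Irf8 (1.00), which rose too, is named after its values were seen. Siglech, a defining surface marker, was above background on 0 arrays. The summed signals overlapped, at 45.8 to 65.4 on the imiquimod arrays and 41.2 to 134.7 on the vehicle arrays. The count was 1 with slide as a block and 1 without imiquimod array 1, 2 or 3 or vehicle array 1, where only Spib of the 4 passed.

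**Figure D4:**
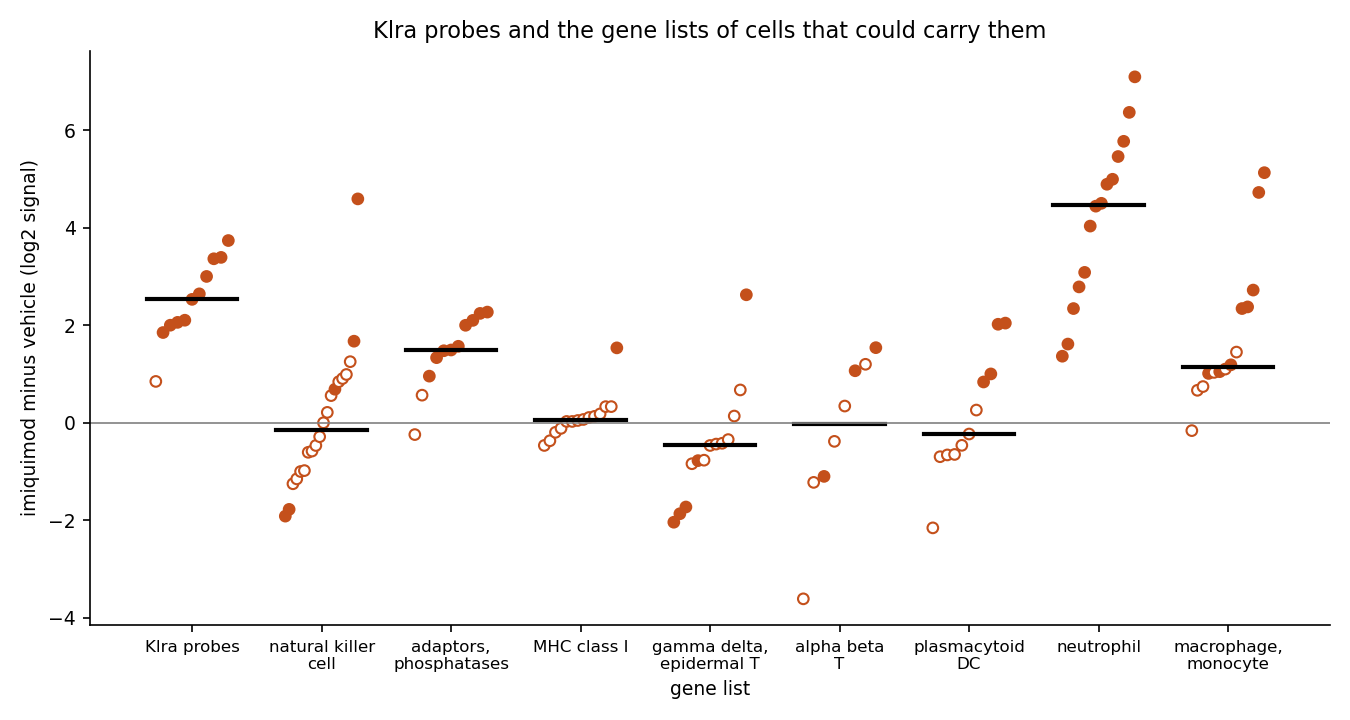
Difference in log2 signal, imiquimod minus vehicle (vertical axis), of the 11 tested Klra probes and of the tested genes of 8 lists (horizontal axis), filled where the adjusted p was under 0.05 and open where not, with the list's median as a bar. The natural killer cell, MHC class I, T cell and plasmacytoid dendritic cell lists have medians between -0.46 and 0.060, the last at -0.23. The Klra probes, the adaptors, the neutrophil list and the macrophage list lie higher, at 2.53, 1.50, 4.48 and 1.15. Klra is counted by probe and the lists by gene. Among the 11 Klra probes, 5 passed the filter through the imiquimod arrays alone. The Klra median was 1.42 over all 24 probes, and 1.05 over the 11 with normexp. The family was taken up with this contrast known, so its fill and median are a description and nothing is read from them.

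Of all named genes outside the family, Ccl5, a chemokine of T and natural killer cells, followed Klra7 most closely over the 6 arrays, with a Pearson correlation of 0.998 and a difference of 2.04. Bid, which promotes apoptosis, came next at 0.996 with a difference of 0.48, then Epor, the erythropoietin receptor, at 0.995 with a difference of 1.21. The arrays fall into 2 groups, so any gene that differs between the creams correlates with Klra7, and the values describe likeness only.

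Because several members were high on the same arrays, the stretches just upstream of the genes were compared. The RefSeq table of GRCm38.p6 gave 13 starts for 11 Klra genes, and it lists Klra22 as a synonym of Klra1; the 250 bases before each start were read. The run of 12 letters held by the windows of the most Klra genes, AAGCAATTTCCT, was picked for being shared. It stood in 8 of the 13 windows, of 7 genes (Klra3, Klra4, Klra5, Klra6, Klra8, Klra9 and Klra17), and in 11 of 32851 windows of all genes (0.0335%), on either strand. Both measured genes (Klra8, Klra9, Klra17) and genes with no measured signal (Klra3, Klra4, Klra5, Klra6) held it, so holding it does not separate them. The TATA box TATAAA was in 8 of 13 windows and 12.4% of all, the Runx core TGTGGT in 1 of 13 and 14.0% of all, and the Stat motif TTCNNNGAA in 3 of 13 and 7.02% of all, each on either strand. A match is a description of letters and not a site. The windows of Klra17 (chr6:129876673-129876922, minus strand) and of the first start of Klra8 (chr6:130129899-130130148, minus strand) are printed because the genes are known from different cell types, with the shared run in capitals.
Klra17: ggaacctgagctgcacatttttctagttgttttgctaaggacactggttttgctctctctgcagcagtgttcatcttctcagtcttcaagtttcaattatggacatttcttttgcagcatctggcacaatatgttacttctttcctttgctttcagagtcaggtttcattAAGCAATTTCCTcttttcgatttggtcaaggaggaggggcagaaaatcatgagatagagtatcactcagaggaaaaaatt
Klra8: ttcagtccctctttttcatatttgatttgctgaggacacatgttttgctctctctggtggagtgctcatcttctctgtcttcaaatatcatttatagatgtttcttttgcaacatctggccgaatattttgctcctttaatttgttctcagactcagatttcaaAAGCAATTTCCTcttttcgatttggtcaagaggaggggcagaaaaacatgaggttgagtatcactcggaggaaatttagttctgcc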

How the data were processed

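Total RNA of 6 skin samples was measured on single-colour (Cy3) Agilent arrays. The scanner files deposited by the authors hold spot intensity on a linear scale, background-subtracted and detrended per the file headers, which name Agilent Feature Extraction 10.7.3.1 (9.1 per the submitters' processing notes), design 014868 and build mm9. The value table deposited beside them holds log2 values: its sorted columns agree within 0.046 and share a median of 7.05, and how it was normalized is not given in the sources used here.

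Arrays were grouped by the treatment word in the scanner file's name. Control spots and 322 outlier spots were left out, replicate spots were averaged, and 41115 of 41174 probes were kept. Each array's 75th percentile was subtracted from its log2 processed signals. The 27415 probes well above background on at least 3 of 6 arrays were tested with limma 3.58.1 (lmFit, eBayes, two-sided) in R 4.3.3, with Benjamini-Hochberg adjustment over all of them at 0.05. Each of 17928 genes was read from its brightest tested probe. The members and lists were chosen with earlier results of these data known. Every Klra probe is accounted for; from each other list the 3 members of smallest p were named, and 6 from the natural killer cell list; not every gene so named is reported here. Replicate numbers did not pair the arrays: deviations of same-numbered arrays correlated at -0.070, 0.077 and 0.102 across probes. Scanning took place on 1 day, slide by slide. The alternatives were quantile normalization, normexp, 2 other filters, the value table, slide and replicate blocks, slide 1 only, a variance trend, leaving out each array and, chosen after seeing the data, leaving out vehicle arrays 2 and 3. The fit was tested on simulated data.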

Additional observations from a re-analysis of the deposited data

How the results depend on the processing

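The 10 Klra probes called higher were the same 10 with quantile normalization, normexp, the value table and a variance trend, were 12 of 24 with no filter (9 of the 10 among them), and 0 were lower in any setting. The count was 2 of 2 with the filter on all 6 arrays, 2 with slide as a block, 1 within slide 1, 6 without both vehicle arrays of status evaluate and 3 to 10 without each array in turn. With the replicate number as a block, which does not pair the arrays, it was 5, where 5.93% of all tested probes were called higher (11.8% in either direction). The share of tested probes called higher was 5.09% with no filter, 12.1% with the filter on all 6 arrays and 2.4% with slide as a block. It was 11% with quantile normalization, 11.5% with normexp, 11.1% with the value table and 12.4% with a variance trend. Without each array in turn it was 4.19% to 11.8%. Fewer residual degrees of freedom remain in the block and left-out settings, and the filter on all 6 arrays keeps 2 Klra probes by construction. The median difference was 1.05 with normexp, 1.50 without the evaluate arrays and 1.95 to 2.80 without each array in turn. Of 167 member differences recomputed, 147 moved by less than 1 SD, 19 moved further (10 of them with normexp) and 1 reversed: that of the first Klra12 probe, -0.060 without the evaluate arrays. The filters, the variance trend and the replicate block leave a probe's difference unchanged by construction. Slide as a block and slide 1 alone give the same difference, counted in each. The 147 is therefore no measure of stability. Dim signals limit these sizes, since vehicle values of 5 tested probes lie at background.

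In the block and within slide 1, the genes called higher were 0 and 0 for the natural killer cell list, 1 and 0 for the adaptors, 0 and 0 for MHC class I, 0 and 0 for gamma delta T cells, 1 and 0 for alpha beta T cells, 1 and 0 for plasmacytoid dendritic cells, 7 and 0 for neutrophils and 2 and 0 for macrophages; those lower were 1 and 0, for natural killer cells, 0 and 0 for gamma delta and 0 and 0 for alpha beta T cells. Natural killer cell genes lower were 1 with quantile normalization, 4 with normexp, 1 with the value table and 1 without the evaluate arrays, where gamma delta genes higher were 0. The replicate block gave 0 alpha beta genes lower, 1 plasmacytoid gene higher and 4 macrophage genes higher. Without each array in turn, natural killer cell genes were 2 to 4 higher and 0 to 6 lower, adaptors 5 to 9 higher, MHC class I 1 higher, gamma delta genes 0 to 1 higher and 2 to 4 lower, alpha beta genes 2 to 3 higher and 0 to 2 lower, plasmacytoid genes 1 to 4 higher and 0 to 1 lower, neutrophil genes 9 to 14 and macrophage genes 4 to 11 higher. The alpha beta gene count lower was 0 without imiquimod array 1 or 3 or vehicle array 1, and 2 without imiquimod array 2 or vehicle array 3. Causes of these shifts were not tested.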
